A study of Mus musculus with 8 samples.

Results

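Expression of 34 genes of sebaceous lipid production was compared between the epidermis of Hnrnpu-knockout (cKO) and control (WT) mice. The genes were taken by symbol from a list of fatty acid, wax and triglyceride synthesis, lipid droplet and fatty acid handling genes. The deposited table of 23171 genes holds 33 of them, and the expression of Thrsp is not analysed here. A count filter left 32 for testing, and Plin5 was too low. Both genotypes had received imiquimod, a Toll-like receptor 7 agonist that causes psoriasis-like inflammation when applied to mouse skin. The knockout is specific to the epidermis per the design text, which gives 4 mice per genotype. The control mice carry the genotype label WT, and the labels name keratinocytes as the cell type. The sources used here do not give the strain, age, Cre driver or deleted exons. No untreated library was analysed here. Libraries are named by genotype and by the replicate number in their titles.

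The sebaceous gland is an appendage of the hair follicle whose cells, the sebocytes, fill with lipid, burst and release sebum onto the skin. Fatty acids are built by acetyl-CoA carboxylase and fatty acid synthase, then desaturated and elongated. They are esterified to glycerol, to cholesterol or to long-chain alcohols, which gives triglycerides, sterol esters and the waxes that mark mouse sebum. PPARγ drives sebocyte differentiation, and SREBP-1 drives transcription of fatty acid synthesis enzymes. Interfollicular keratinocytes make fatty acids too, for the lamellae of the skin barrier, so several of these enzymes are not particular to sebocytes.

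By role, the median log2 fold change was 1.76 for wax synthesis, 1.26 for the regulators, 1.13 for desaturation and elongation and 1.004 for lipid droplets. The medians of the regulators and of the lipid droplet genes, each over 3 tested genes, are the values of Pparg and Plin2. The median was 0.29 for triglyceride and sterol ester synthesis and -0.15 for fatty acid handling, and Mgst1 alone stood at -0.30. The cKO means of the enzymes that build fatty acids were within 1 SD of the WT means. Of the 32 tested genes, 23 had a positive log2 fold change (cKO over WT, 71.9%, against 51.9% of all 14004 tested genes), with a median of 0.47 against 0.01 over all. The genes were chosen with earlier results of these data known, so the shares set beside those of all tested genes are a description and not a test. The lipid droplet gene Cidea rose, and it was the only one to pass the edgeR quasi-likelihood test at an adjusted p below 0.05. That is 1 of 32 higher (3.12%) and 0 lower, beside 0.671% of all tested genes called higher. At an unadjusted p below 0.05 there were 13 higher and 2 lower, 46.9% of the 32 against 18.6% of all tested genes. All 4 cKO libraries lay above all 4 WT libraries in 6 genes (Awat1, Awat2, Far2, Cidea, Plin2 and Lpl), 18.8% beside 5.26% of all tested genes. They lay below all WT libraries in 1 gene, Fabp4, which is 3.12% beside 5.82%. DESeq2 called 13 higher and 1 lower, beside 4.51% of all tested genes called higher and 4.12% called lower. Without cKO replicate 4, edgeR called 8 higher, beside 0.956% of all tested genes. Without cKO replicate 2 it called 3 (beside 1.76%). Without cKO replicate 1, cKO replicate 3 or any 1 of the 4 WT libraries it called 0. Few genes were called at all in those fits, 0.035% to 0.226% of all tested genes being called higher.

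**Figure D1:**
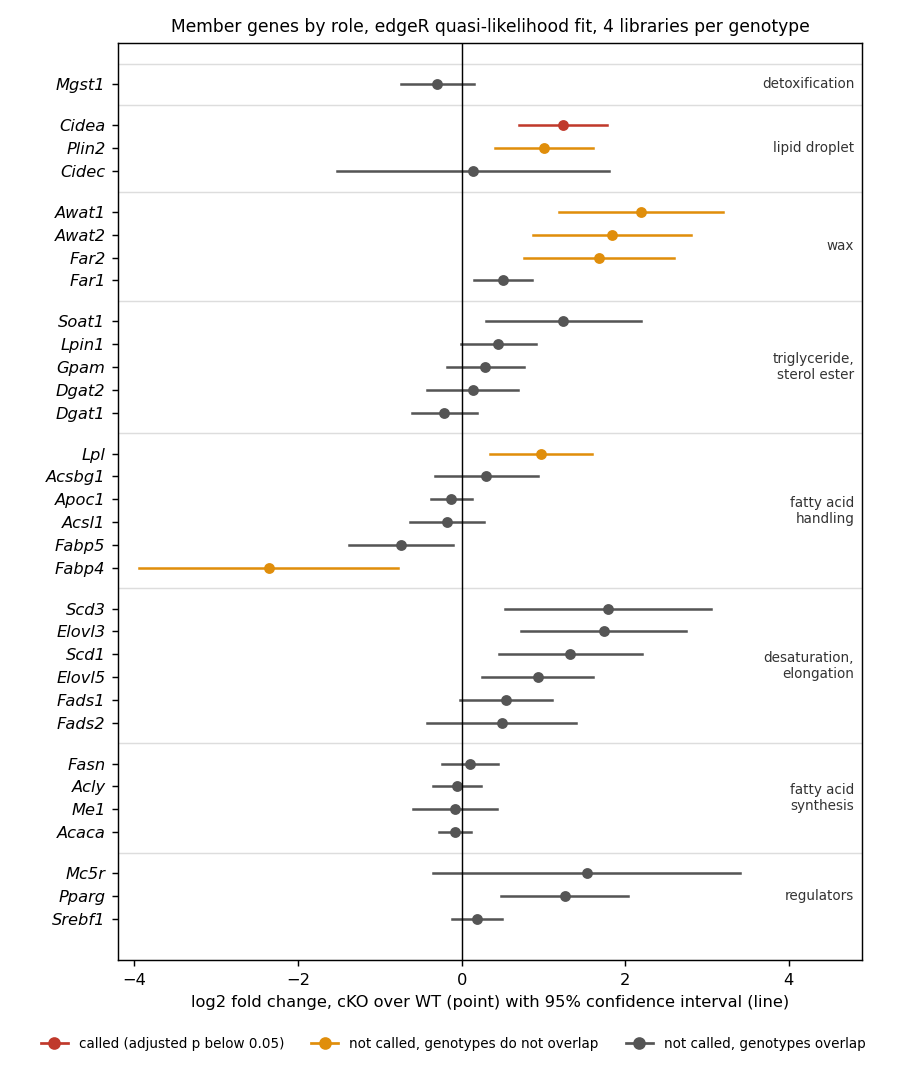
Log2 fold change of the 32 tested genes, cKO over WT (horizontal axis), with 95% confidence intervals from the edgeR fit, grouped by role; red marks the called gene, orange the genes in which the genotypes do not overlap. Wax synthesis genes lie to the right of 0, from 0.50 for Far1 to 2.19 for Awat1, and the 4 fatty acid synthesis genes lie near 0, from -0.08 to 0.10.

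These libraries hold 37158621 to 38865722 counts each. The keratinocyte keratins Krt5, Krt14, Krt1 and Krt10 together gave 57823 to 82213 normalised read counts on the CPM scale in cKO and 65471 to 86217 in WT. None of the 4 was called. Krt14 had a log2 fold change of -0.58 (edgeR adjusted p = 0.246), and only cKO replicate 1 reached its WT range. It was lowest in cKO replicate 3, at 6993 CPM against 15650 CPM in the lowest WT library. Krt5, Krt1 and Krt10 had log2 fold changes of -0.03, -0.22 and 0.02. Hnrnpu stood at 189.8, 373, 355 and 312 CPM in cKO replicates 1 to 4 and at 455, 424, 431 and 439 CPM in WT replicates 1 to 4. All 4 cKO values lay below the WT values, with much of the transcript still counted (log2 fold change -0.51 ± 0.19 SE, edgeR adjusted p = 0.191). RNA was measured in bulk, so more sebocytes in a sample and more of a transcript per sebocyte cannot be told apart.

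Among the regulators, Pparg, which encodes the nuclear receptor PPARγ, had a mean 2.39 times that of WT in the fit. It stood at 10.7, 4.59, 9.53 and 6.71 CPM in cKO replicates 1 to 4 and at 3.41, 2.88, 1.92 and 4.98 CPM in WT replicates 1 to 4. Only WT replicate 4, slightly above cKO replicate 2, kept the genotypes from separating. The log2 fold change was 1.26 ± 0.34 (SE, 95% confidence interval 0.49 to 2.03, edgeR adjusted p = 0.0981, exact permutation p = 0.0571). Among the fits with 1 library left out, the call appeared only without cKO replicate 2, the lowest cKO library of Pparg (edgeR adjusted p = 0.0464). In that fit 1.76% of all tested genes were called higher. With other libraries left out the adjusted p was up to 0.212. Srebf1, which encodes SREBP-1, was at 89.9 ± 18.1 CPM in cKO and 78.9 ± 4.37 in WT (SD, n = 4 each; log2 fold change 0.19 ± 0.14, adjusted p = 0.5). Its 95% confidence interval of -0.12 to 0.49 lies within a 2-fold change. Mc5r, the melanocortin 5 receptor of sebocytes, is a low gene with 15 to 400 counts per library. Its level was 1.30, 3.11, 9.65 and 0.357 CPM in cKO replicates 1 to 4 and 2.12, 0.774, 0.750 and 1.34 CPM in WT replicates 1 to 4. It spanned a 27.0-fold range within cKO, from replicate 4 to replicate 3, which holds the whole WT range. Its log2 fold change of 1.53 ± 0.83 (adjusted p = 0.366) was 0.34 without cKO replicate 3.

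None of the 4 enzymes that build the carbon chain passed the test, and each cKO mean was within 1 WT SD of the WT mean. Fasn, fatty acid synthase, stood at 275, 219, 254 and 209 CPM in cKO replicates 1 to 4 and at 189, 197, 217 and 287 CPM in WT replicates 1 to 4, so its highest library was a WT library (log2 fold change 0.10 ± 0.15, 95% confidence interval -0.24 to 0.45, edgeR adjusted p = 0.768). Acaca, acetyl-CoA carboxylase 1, was at 79.3 ± 3.95 and 84.1 ± 6.48 CPM in cKO and WT (SD, n = 4 each, -0.28 to 0.11, adjusted p = 0.656). Acly, which makes cytosolic acetyl-CoA from citrate, was at 327 ± 46.1 and 339 ± 42.9 CPM (-0.35 to 0.24, adjusted p = 0.877). Me1, the malic enzyme that supplies NADPH, was at 202 ± 62.5 and 214 ± 31.5 CPM (-0.59 to 0.43, adjusted p = 0.888). Each of the 4 intervals lies within a 2-fold change in either direction. The sign of the Acly and Me1 values turned with single libraries left out.

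Promoter sequences are shown for a gene of each kind, those with higher means in cKO and those without. RefSeq sequences of GRCm38.p6 ran from 250 bases before to 50 after an annotated start. They were matched by symbol for 23 of the 34 genes (Thrsp and Plin5 among them), in 34 promoters. No promoter was matched for Mc5r, Scd1, Fads1, Elovl3, Fabp4, Fabp5, Lpl, Apoc1, Dgat1, Dgat2 or the called gene Cidea. The shares below leave these genes out. The letters searched on both strands were CCAAT (the CCAAT box), TATAAA (the TATA box), TCACNCCAC (a sterol response element, the site of SREBPs), AGGTCA (a nuclear receptor half-site) and 2 such half-sites in the same orientation 1 base apart (direct repeat 1, the site type of PPARγ with RXR, which contains the half-site). CCAAT was in 19 of the 34 promoters (55.9%) and in 37.4% of all 32851 promoters of this length. These 19 belong to 16 of the 23 genes, as a gene with more than 1 annotated start counts more than once. AGGTCA was in 8 (23.5%, against 16.3%), TATAAA in 1 (2.94%, against 13.6%), TCACNCCAC in 1, of Acsl1 (2.94%, against 1.24%), and direct repeat 1 in 0 (against 0.0396%). A match of letters is a description and not a measured site. Promoters of the same gene can overlap. The promoter of Fasn is shown for the enzymes with near-equal means, with matches in capitals. It holds CCAAT on either strand at -90, -62 and -59 from the start, the last 2 overlapping.
Fasn, chr11:120824498-120824797, minus strand: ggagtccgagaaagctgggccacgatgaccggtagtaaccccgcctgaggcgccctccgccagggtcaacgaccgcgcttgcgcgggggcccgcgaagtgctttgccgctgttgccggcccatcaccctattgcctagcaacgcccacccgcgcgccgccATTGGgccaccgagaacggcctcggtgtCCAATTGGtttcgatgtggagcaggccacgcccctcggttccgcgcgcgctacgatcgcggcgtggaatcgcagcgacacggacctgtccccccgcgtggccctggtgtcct

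All 6 desaturation and elongation genes had a positive fold change, with a median log2 value of 1.13 and none called. Scd1, the stearoyl-CoA desaturase of sebocytes that makes monounsaturated fatty acids, stood at 1592, 1280.1, 2396 and 601 CPM in cKO replicates 1 to 4. The WT libraries stood at 704, 455, 388 and 786 CPM. The values of cKO replicates 1 to 3 exceed every WT value, and cKO replicate 4 lies inside the WT range. The fitted fold was 2.51 (log2 fold change 1.33 ± 0.39, adjusted p = 0.117, exact permutation p = 0.0857). Scd3, a skin desaturase close to Scd1 in sequence, was at 6.79, 11.7, 28.0 and 4.04 CPM in cKO replicates 1 to 4 and at 4.88, 2.68, 2.31 and 4.74 CPM in WT replicates 1 to 4. It had the same order of cKO libraries at the top and the bottom, replicate 3 above and replicate 4 below (1.79 ± 0.56, adjusted p = 0.135). How reads shared by Scd copies were counted is not given, so the low Scd3 values are uncertain. Elovl3, an elongase of very long chains in sebaceous glands, was at 195, 110.2, 182 and 50.7 CPM in cKO replicates 1 to 4 and at 48.0, 27.3, 23.2 and 62.8 CPM in WT replicates 1 to 4. Again only cKO replicate 4 fell among the WT libraries (1.74 ± 0.45, 3.33-fold, adjusted p = 0.0844). Elovl5, which elongates polyunsaturated fatty acids, was at 92.6 ± 43.2 and 48.5 ± 6.93 CPM (0.93 ± 0.30, adjusted p = 0.146). The front-end desaturases Fads1 (0.54 ± 0.25, adjusted p = 0.286) and Fads2 (0.49 ± 0.40, adjusted p = 0.558) were low, with means under 5 CPM. Without cKO replicate 4, edgeR called Scd1, Elovl3 and Elovl5, with log2 fold changes of 1.59, 2.02 and 1.16 (beside 0.956% of all tested genes called higher). Replicate 4 is the lowest cKO library of each and was singled out after its values were seen. None of these genes was called with any other library left out (edgeR adjusted p up to 0.277).

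None of the 5 genes of triglyceride and sterol ester synthesis was called, and Soat1 had the highest fold change of them. Soat1, sterol O-acyltransferase 1, stood at 90.8, 70.02, 124 and 34.2 CPM in cKO replicates 1 to 4 and at 40.6, 21.8, 19.5 and 52.7 CPM in WT replicates 1 to 4. Replicates 1 to 3 of cKO lay above all WT libraries and replicate 4 within them (log2 fold change 1.24 ± 0.42, adjusted p = 0.162). Dgat1 and Dgat2 encode the acyltransferases of the last step to triglyceride. Dgat1 was at 35.0 ± 7.81 and 40.6 ± 5.74 CPM (-0.21 ± 0.18, adjusted p = 0.555), and Dgat2 at 277 ± 105 and 252 ± 45.4 CPM (0.13 ± 0.25, adjusted p = 0.826). Gpam, which starts glycerolipid synthesis in mitochondria, had a log2 fold change of 0.29 ± 0.21 (adjusted p = 0.502). Lpin1, a phosphatidate phosphatase, was at 5.73 ± 1.02 and 4.20 ± 0.841 CPM (0.45 ± 0.20, adjusted p = 0.283).

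Wax synthesis had the highest median of the roles, 1.76 on the log2 scale over 4 genes. In 3 of them all cKO libraries lay above all WT libraries (75%, beside 5.26% of all tested genes), and none was called. Awat1 encodes an acyl-CoA wax alcohol acyltransferase, which joins fatty alcohols to fatty acids. Its level was 70.6, 45.0, 68.2 and 19.3 CPM in cKO replicates 1 to 4 and 17.4, 10.5, 5.33 and 11.3 CPM in WT replicates 1 to 4. The lowest cKO library, replicate 4, stood just above the highest WT library. The fitted fold was 4.56 (log2 fold change 2.19 ± 0.45, 95% confidence interval 1.18 to 3.19), with an edgeR adjusted p of 0.0516, just short of the threshold, and an exact permutation p of 0.0286, the smallest that 4 against 4 allows. Its paralog Awat2 was at 18.5, 12.8, 18.8 and 7.54 CPM in cKO replicates 1 to 4 and at 6.58, 4.23, 1.5 and 3.77 CPM in WT replicates 1 to 4. The genotypes again lay apart, by a small gap (1.84 ± 0.43, 3.58-fold, adjusted p = 0.0660). Far2, which reduces fatty acids to the alcohols that Awat enzymes use, was at 264, 177, 334 and 106 CPM in cKO replicates 1 to 4 and at 84.6, 48.5, 37.7 and 104 CPM in WT replicates 1 to 4. The gap between cKO replicate 4 and WT replicate 4 was small beside the difference of the means (1.68 ± 0.41, 3.21-fold, adjusted p = 0.0718). Far1, the more widely expressed reductase, was at 77.5 ± 9.26 and 54.7 ± 10.9 CPM (0.50 ± 0.16, adjusted p = 0.135). Without cKO replicate 4, edgeR called Awat1, Awat2 and Far2 (2.47, 2.06 and 1.92, beside 0.956% of all tested genes called higher). Replicate 4 is the lowest cKO library of each and was singled out after its values were seen. With another library left out, only Awat1 was called, without cKO replicate 2 (beside 1.76%). With no low-count filter edgeR called Awat1, Awat2 and Far2 on all 8 libraries (0.764% of all genes were then called higher).

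The promoters of these 3 genes are shown because the genotypes lay apart in each of them. Awat1 holds 1 CCAAT match at 43 after the start, and Awat2, which has 2 annotated starts, holds 1 in each promoter, at -121 and -85. None of the searched letters is in the Far2 window. On the X chromosome of the RefSeq table for GRCm38.p6, Awat1 lies next to Dgat2l6, a further acyltransferase gene, and 2 protein-coding genes stand between Dgat2l6 and Awat2.
Awat1, chrX:100571997-100572296, plus strand: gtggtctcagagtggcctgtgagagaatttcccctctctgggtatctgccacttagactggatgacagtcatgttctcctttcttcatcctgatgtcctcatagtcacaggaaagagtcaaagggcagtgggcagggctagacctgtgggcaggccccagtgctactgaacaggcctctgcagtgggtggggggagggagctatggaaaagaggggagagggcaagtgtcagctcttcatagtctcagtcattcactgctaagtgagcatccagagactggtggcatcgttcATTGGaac
Awat2, chrX:100412538-100412837, minus strand: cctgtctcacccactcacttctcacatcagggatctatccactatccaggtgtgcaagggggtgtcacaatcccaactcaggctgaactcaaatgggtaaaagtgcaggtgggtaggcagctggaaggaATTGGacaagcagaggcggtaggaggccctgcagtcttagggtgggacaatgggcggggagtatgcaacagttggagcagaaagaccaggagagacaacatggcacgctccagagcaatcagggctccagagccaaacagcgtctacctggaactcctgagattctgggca
Awat2, chrX:100442668-100442967, minus strand: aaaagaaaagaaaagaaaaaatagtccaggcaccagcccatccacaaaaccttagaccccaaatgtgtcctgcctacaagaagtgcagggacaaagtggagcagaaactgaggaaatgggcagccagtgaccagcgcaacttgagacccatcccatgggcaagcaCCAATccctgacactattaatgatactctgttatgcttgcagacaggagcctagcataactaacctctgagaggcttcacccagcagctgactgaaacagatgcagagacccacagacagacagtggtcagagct
Far2, chr6:148047166-148047465, plus strand: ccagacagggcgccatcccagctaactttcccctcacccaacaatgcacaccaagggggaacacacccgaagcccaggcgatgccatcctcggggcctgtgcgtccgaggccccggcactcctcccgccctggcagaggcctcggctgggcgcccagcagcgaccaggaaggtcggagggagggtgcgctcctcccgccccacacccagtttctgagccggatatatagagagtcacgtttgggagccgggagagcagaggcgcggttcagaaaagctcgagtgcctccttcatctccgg

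**Figure D2:**
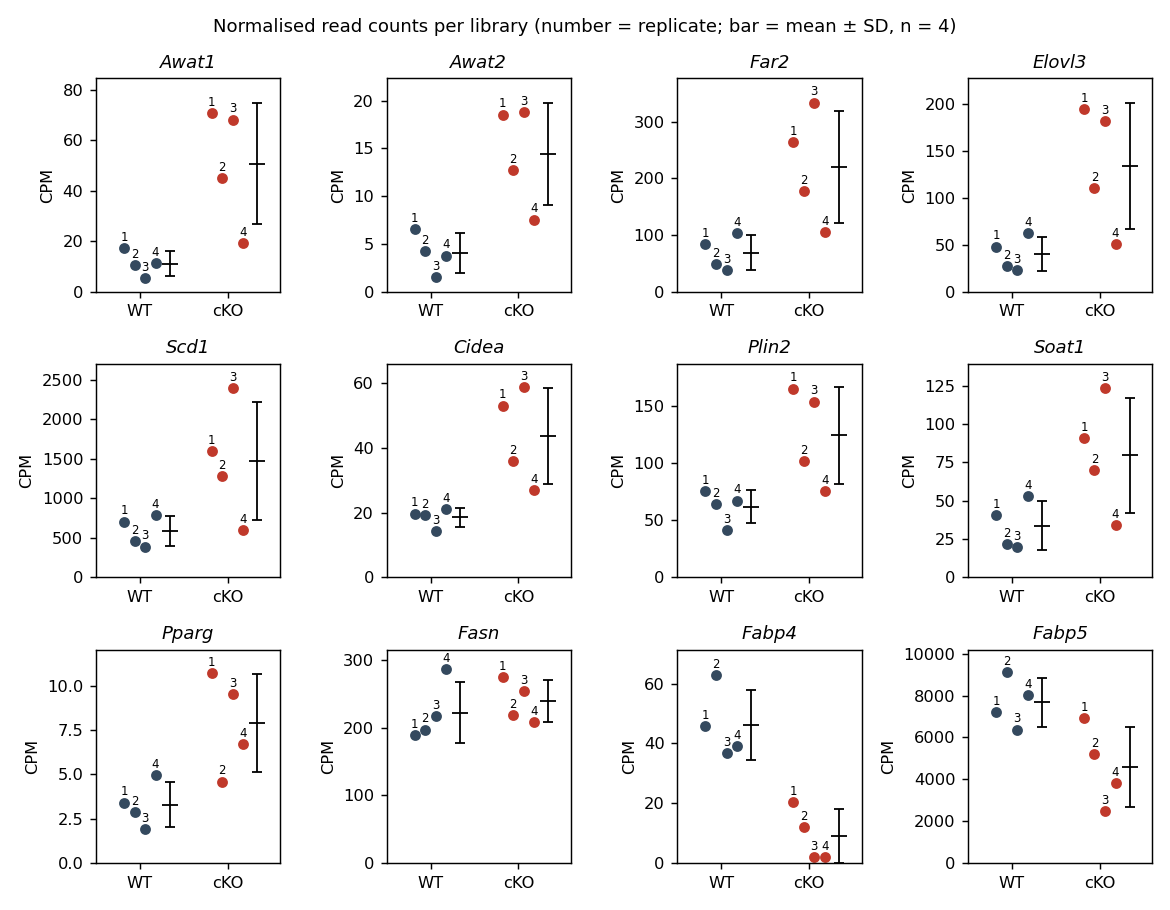
Normalised read counts (CPM, vertical axis from 0) of 12 genes in each library, WT in dark blue and cKO in red, each point numbered by replicate, with mean ± SD (n = 4) beside them. In Awat1, Awat2, Far2, Elovl3, Scd1, Cidea, Plin2 and Soat1 cKO replicate 4 is the lowest cKO library, at 19.3 CPM for Awat1 against 45.0 to 70.6 in the other 3, whereas all 4 cKO values of Fabp4 lie below its WT values.

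Of the 3 tested lipid droplet genes, 1 rose and 0 fell (33.3% higher, beside 0.671% of all tested genes called higher). Cidea, a droplet protein that promotes fusion of droplets, stood at 53.0, 36.0, 58.8 and 27.0 CPM in cKO replicates 1 to 4 and at 19.7, 19.1, 14.4 and 21.0 CPM in WT replicates 1 to 4. Every cKO library lay above every WT library, and Cidea rose 2.36-fold (log2 fold change 1.24 ± 0.24, edgeR adjusted p = 0.0440). Its call was lost without cKO replicate 1 or 3 or any 1 WT library, with adjusted p from 0.0785 to 0.109. In those fits 0.035% to 0.226% of all tested genes were called higher. The log2 fold change of Cidea stayed between 1.07 and 1.42 over the 8 left-out libraries. Plin2, the coat protein found on droplets of many cell types, was at 166, 102, 154 and 75.8 CPM in cKO replicates 1 to 4 and at 75.7, 63.9, 41.4 and 67.2 CPM in WT replicates 1 to 4. The lowest cKO library, replicate 4, and the highest WT library, replicate 1, were almost level (1.004 ± 0.27, 2.01-fold, adjusted p = 0.0914, exact permutation p = 0.0286). Cidec, a droplet protein of fat cells, had 39, 14, 14 and 15 counts in cKO replicates 1 to 4 and 15, 10, 2 and 44 in WT replicates 1 to 4. No difference was detectable at that depth (0.14 ± 0.74, 95% confidence interval -1.53 to 1.80, adjusted p = 0.949). Plin5, a coat protein of oxidative tissues, had 7, 2, 10 and 4 counts in cKO replicates 1 to 4 and 1, 0, 0 and 0 in WT replicates 1 to 4, and was not tested. All 4 cKO counts of Plin5 exceeded the WT counts, at 10 or fewer. The Plin2 promoter, shown for a tested droplet gene whose genotypes lay apart, holds AGGTCA on the other strand at -218 and CCAAT at -73, in capitals.
Plin2, chr4:86670010-86670309, minus strand: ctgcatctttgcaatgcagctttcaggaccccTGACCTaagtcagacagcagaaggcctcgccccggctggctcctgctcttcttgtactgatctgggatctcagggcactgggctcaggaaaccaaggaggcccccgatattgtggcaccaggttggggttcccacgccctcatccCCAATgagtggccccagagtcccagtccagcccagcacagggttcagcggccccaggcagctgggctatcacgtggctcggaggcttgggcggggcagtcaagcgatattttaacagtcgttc

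Fatty acid handling genes went both ways. Lpl, the lipase that frees fatty acids from lipoproteins, stood at 63.0, 30.1, 56.1 and 29.6 CPM in cKO replicates 1 to 4 and at 27.6, 18.8, 17.9 and 26.8 CPM in WT replicates 1 to 4. Replicates 1 and 3 of cKO stood well above the WT libraries, and replicates 2 and 4 only just above them (0.97 ± 0.28, adjusted p = 0.110). Fabp4, a fatty acid binding protein of fat cells, macrophages and capillaries, had the lowest fold change of the set. It stood at 20.5, 11.9, 1.98 and 1.83 CPM in cKO replicates 1 to 4 and at 45.8, 63.0, 36.9 and 39.2 CPM in WT replicates 1 to 4. Replicates 3 and 4 of cKO had the lowest values, and none of the 4 reached the WT range. The log2 fold change was -2.36 ± 0.70 (95% confidence interval -3.94 to -0.77), a fitted 5.12-fold lower level, with an edgeR adjusted p of 0.123. The summed endothelial markers were also lower in every cKO library (1.18 to 2.02 CPM) than in any WT library (2.65 to 3.38 CPM), and their part in the Fabp4 difference was not tested. Of the 6 endothelial genes 2 could be tested and neither was called. Tie1, with means of 0.472 ± 0.306 (cKO) against 1.39 ± 0.325 CPM (WT, adjusted p = 0.203), lay lower in all cKO libraries, and Pecam1, at 0.865 ± 0.244 and 1.10 ± 0.197 CPM (adjusted p = 0.586), overlapped. Tie1 was named after its values were seen. Fabp5, the epidermal fatty acid binding protein, was at 4595 ± 1905 CPM in cKO against 7679 ± 1167 in WT (-0.74 ± 0.28, adjusted p = 0.205). Only cKO replicate 1 reached the WT range of Fabp5. Acsl1 (-0.18 ± 0.20, adjusted p = 0.686) and Acsbg1 (0.30 ± 0.28, adjusted p = 0.608), which activate fatty acids with coenzyme A, did not pass, nor did the apolipoprotein gene Apoc1 (-0.13 ± 0.11, adjusted p = 0.583) or Mgst1, a microsomal glutathione transferase abundant in sebocytes (-0.30 ± 0.20, adjusted p = 0.466).

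Levels between genes were compared per transcript length, on the FPKM scale. Fabp5 was the most abundant at 4864 FPKM in cKO and 7889 FPKM in WT (means of 4). In WT the next were Apoc1 at 310.4, Scd1 at 119, Mgst1 at 116 and Dgat2 at 109 FPKM. In cKO the mean of Scd1 was 311 FPKM and that of Apoc1 296. The wax genes were well below these, Awat1 at 37.1 and 7.87 FPKM in cKO and WT and Awat2 at 4.98 and 1.34. Pparg was at 2.96 and 1.18 FPKM, rank 27 of 33 over all libraries.

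The cKO libraries differed among themselves in a shared order. Replicate 4 was the lowest cKO library in 27 of the 32 genes (in 26.5% of all tested genes). Replicates 3 and 1 were the highest in 15 and 11 (in 26.2% and 18.8% of all tested genes). The 5 exceptions to replicate 4 as lowest were Pparg, Far1, Fabp5, Cidec and Lpin1, chosen after their values were seen. Replicate 4 lay above the WT range in 8 genes, within it in 10 and below it in 14 (within it in 39.8% and below it in 30.4% of all tested genes). The other cKO libraries lay above the WT range in 17, 18 and 20 genes (replicates 1, 2 and 3). Over all tested genes these shares were 28.1% to 32.0% for the 4 libraries. Among WT libraries, replicate 3 was the lowest in 18 genes and replicate 4 the highest in 14. The highest cKO library exceeded the lowest by a median of 2.17-fold, against 1.45-fold in WT (1.47-fold and 1.31-fold over all tested genes). Without cKO replicate 4, left out after its values were seen, the genotypes did not overlap in 13 genes with cKO higher, beside 8.36% of all tested genes in the same comparison. The 7 added were Scd1, Scd3, Elovl3, Elovl5, Fads1, Fads2 and Soat1. Without WT replicate 4 the genotypes did not overlap in 11 genes with cKO higher, beside 6.29% of all tested genes. Hnrnpu did not follow the shared order of the cKO libraries, its lowest cKO library being replicate 1.

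**Figure D3:**
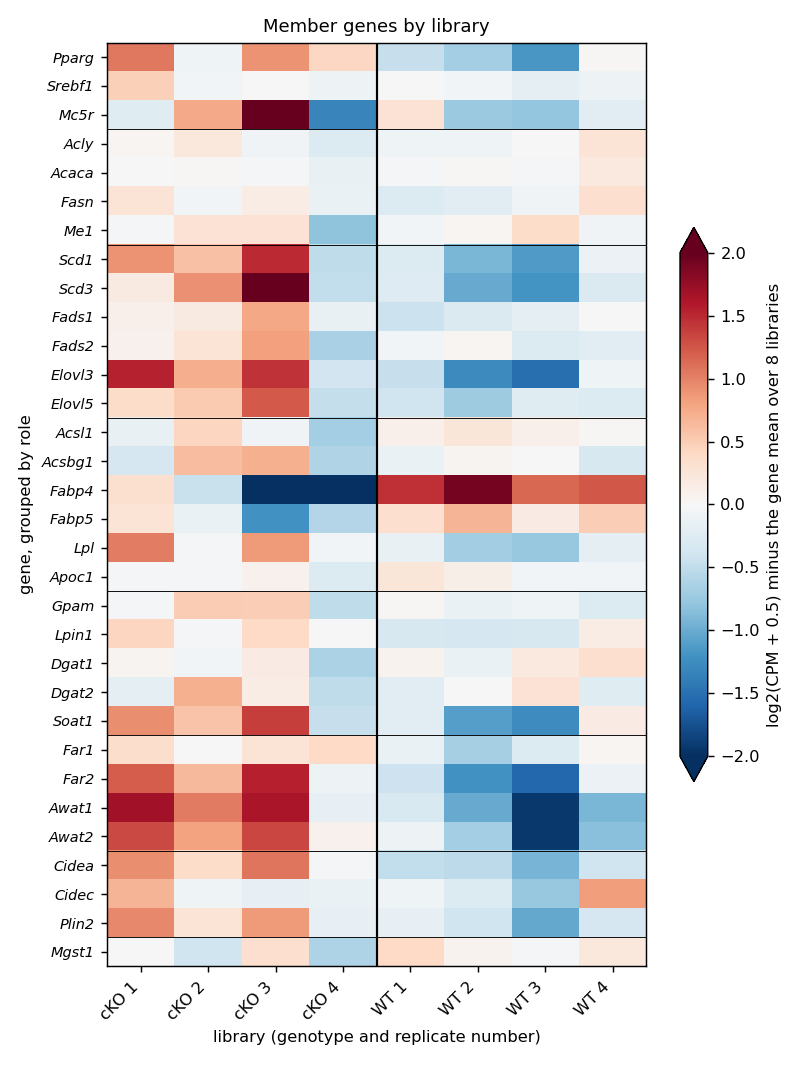
Map of the 32 genes (rows, grouped by role) in the 8 libraries (columns), coloured by log2(CPM + 0.5) minus the mean of the gene over the 8 libraries, with colours saturating at 2 and -2. Values of Awat1 are 1.68 and 1.63 in cKO replicates 1 and 3 (red) and -0.17 in cKO replicate 4, and those of Fabp4 run from 1.15 to 1.91 in WT and reach -2.77 and -2.85 in cKO replicates 3 and 4 (deep blue).

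Markers of other cells were summed per library. White adipocyte markers gave 3.83 to 18.5 CPM in cKO and 3.57 to 4.56 in WT, with cKO replicate 4 within the WT range and the other 3 above it. In cKO replicates 1 to 3 most of it came from Plin4 and Adig. Plin4, a droplet coat gene, was at 8.27, 6.97, 11.2 and 0.975 CPM in cKO replicates 1 to 4 and at 2.10, 0.995, 0.5 and 0.856 CPM in WT replicates 1 to 4. Adig, adipogenin, was named after its value was seen, at 7.72, 4.20, 5.57 and 2.74 and 1.70, 1.35, 2.17 and 2.44 CPM. Among the other adipocyte genes Retn had 0 to 5 counts per library, Cfd and Car3 0 to 4, and Plin1 1 count in all 8 libraries together. Adrb3, named after its values were seen, had 0, 19, 64 and 4 counts in cKO replicates 1 to 4 and 27, 44, 30 and 15 in WT replicates 1 to 4 (adjusted p = 0.819). Adipoq, Lep and Pck1 are not analysed here. Brown adipocyte genes summed to at most 0.434 CPM. Macrophage markers ranged from 23.3 to 53.3 CPM in cKO and from 30.4 to 42.8 in WT. Fibroblast and muscle markers stayed below 10 CPM in every library. None of the tested genes of these lists was called. By mean CPM over all 8 libraries the highest were Csf1r (19.1 ± 9.30 in cKO and 16.1 ± 1.85 in WT) among macrophage genes, Col3a1 (0.423 ± 0.172 and 1.19 ± 1.42) among fibroblast genes and Mylpf (3.16 ± 1.47 and 4.18 ± 0.309) among muscle genes.

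The infundibulum and isthmus are the upper follicle to which the gland is attached. The genes listed for them summed to 3748.0 to 5807 CPM in cKO and 1965 to 2908 in WT, without overlap. Of these 7 genes, 3 rose and 0 fell, beside 0.671% of all tested genes called higher. These were Krt79 (log2 fold change 0.95, adjusted p = 0.0301), Krt75 (2.71, adjusted p = 0.00610) and Lgr6 (1.11, adjusted p = 0.0386). Of these calls, that of Krt75 held without any 1 library (adjusted p up to 0.0287), and those of Krt79 and Lgr6 held only without cKO replicate 2 or 4. In bulk RNA the part of the follicle that expressed each gene, Krt75 among them, was not measured. Krt75 added 28.7 ± 6.92 CPM to the sum in cKO and 4.38 ± 1.27 in WT. Its call is therefore that of 1 gene and not of the upper follicle. Most of the sum came from Krt79 and from Defb6, an epithelial defensin (1560.0, 990.1, 1178 and 2419 CPM in cKO replicates 1 to 4, 655 ± 192 in WT, adjusted p = 0.0753). The others did not share a direction: Plet1 was at 85.1 ± 25.9 CPM in cKO and 182 ± 106 in WT (log2 fold change -1.10, adjusted p = 0.171), Sostdc1 at -0.10 and Lrig1 at 0.21. These 4 genes were named after their values were seen. Replicate 4 of cKO was the highest library for the sum, Defb6 and Krt75, and replicate 3 for Krt79 and Lgr6. The part of the upper follicle share in the differences of the lipid genes was not tested.

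**Figure D4:**
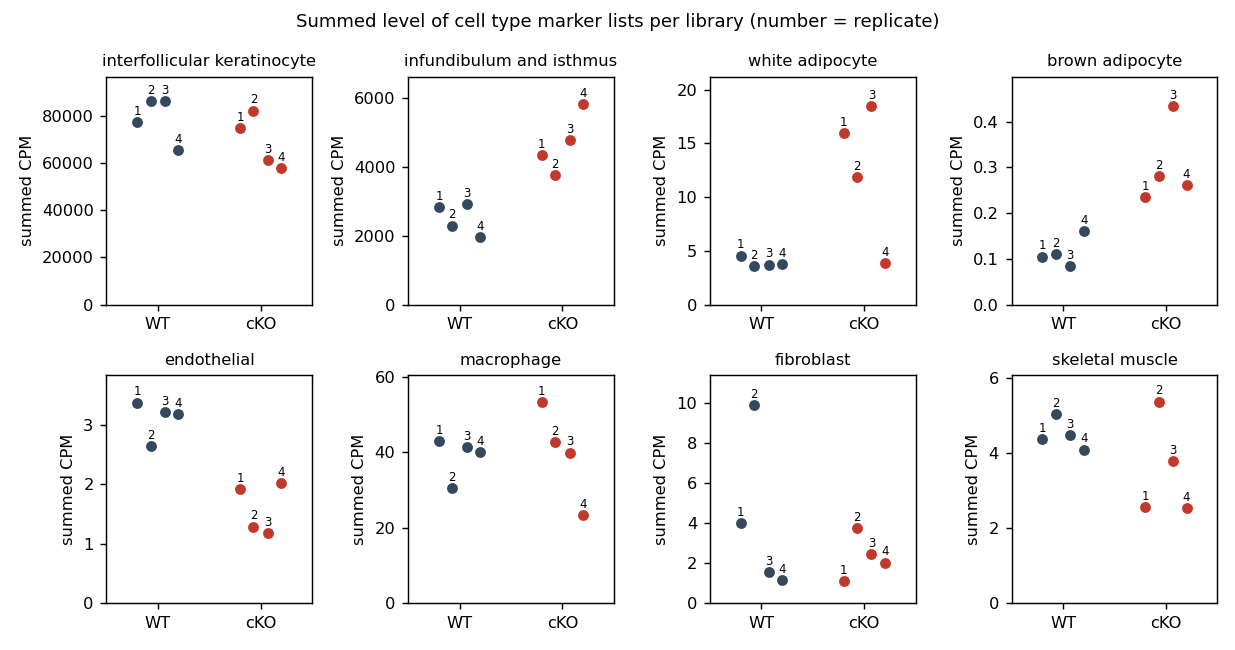
Summed CPM (vertical axes from 0) of 8 marker lists in each library, WT in dark blue and cKO in red, numbered by replicate. The infundibulum and isthmus sum, mostly Krt79 and Defb6, is higher in all 4 cKO libraries, with replicate 4 highest at 5807 CPM, although Plet1 in that list has a log2 fold change of -1.10, and the white adipocyte sum stays under 19 CPM in all libraries.

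Of 9 further sebaceous gland genes, all tested, 2 rose and 0 fell (22.2% higher, beside 0.671% of all tested genes), with a median log2 fold change of 0.95. Both calls were lost without cKO replicate 1, cKO replicate 3 or any 1 WT library, with adjusted p up to 0.0877. In those fits 0.035% to 0.226% of all tested genes were called higher. Gata6, a transcription factor of the sebaceous duct lineage, rose from 3.96, 4.20, 3.42 and 1.90 CPM in WT replicates 1 to 4 to 9.67, 7.98, 15.1 and 14.9 CPM in cKO replicates 1 to 4 (1.82 ± 0.30, adjusted p = 0.0308). Krt79, a keratin of the duct and infundibulum, rose from 1432 ± 232 to 2763 ± 365 CPM. In Gata6 and Krt79 cKO replicate 4 was in the upper pair of the cKO libraries. Krt79 and Lrig1 are also in the infundibulum and isthmus list, so the call of Krt79 is counted in both lists. The lipid enzymes Fa2h, fatty acid 2-hydroxylase, at 198 ± 107 and 58.2 ± 27.6 CPM (1.77 ± 0.47, adjusted p = 0.0921), and Cers4, a ceramide synthase, at 159 ± 84.1 and 61.7 ± 21.4 CPM (1.37 ± 0.39, adjusted p = 0.111), did not pass. Dgat2l6, the neighbour of Awat1, was named after its value was seen. It stood at 20.3, 12.6, 15.2 and 5.69 CPM in cKO replicates 1 to 4 and at 4.61, 2.65, 0.667 and 2.22 CPM in WT replicates 1 to 4, without overlap (2.40 ± 0.54, adjusted p = 0.0598).

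None of the other 4 pathway lists had a called gene. Of 28 tested further genes of fatty acid and glycerolipid synthesis, 18 had a positive fold change (median 0.12), and at an unadjusted p below 0.05 there were 6 higher and 1 lower, 25% beside 18.6% of all tested genes. The abundant elongation enzymes Tecr (0.03 ± 0.11, adjusted p = 0.911) and Hsd17b12 (0.26 ± 0.13, adjusted p = 0.312) had intervals within a 2-fold change. Of 14 regulators of lipid synthesis, 7 were positive (median 0.01), with Cebpa at -0.00 ± 0.17 and Cebpb at 0.02 ± 0.13 (adjusted p = 0.994 and 0.967). Of 11 tested droplet and lipolysis genes, 9 were positive (median 0.39). Mgll, monoglyceride lipase, stood at 316, 223, 468 and 102 CPM in cKO replicates 1 to 4 and at 94.8, 62.8, 45.3 and 116 CPM in WT replicates 1 to 4, with cKO replicate 4 within the WT range (1.80 ± 0.45, adjusted p = 0.0774). Abhd5, the activator of triglyceride lipase, was at -0.27 ± 0.14 (adjusted p = 0.330). Of 16 tested uptake and oxidation genes, 10 were positive (median 0.12), with Hadha at 0.09 ± 0.09 (adjusted p = 0.607) and the transporter gene Slc27a4 at 0.41 ± 0.21 (adjusted p = 0.331). Over all 5 lists 2 of 78 tested genes were called, Gata6 and Krt79 (2.56% higher, beside 0.671% of all tested genes). Without cKO replicate 4 there were 13 (beside 0.956%), and without cKO replicate 2 there were 4 (beside 1.76%). Without cKO replicate 1, cKO replicate 3 or any 1 WT library there were 0 (beside 0.035% to 0.226%).

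Isoforms of the same enzyme differed in their values, and these were set side by side after they were seen. Acacb, acetyl-CoA carboxylase 2, was at 54.9, 35.0, 79.0 and 16.1 CPM in cKO replicates 1 to 4 and at 17.9, 10.4, 9.83 and 18.5 CPM in WT replicates 1 to 4 (1.71 ± 0.44, adjusted p = 0.0853), where Acaca had a log2 fold change of -0.08. Elovl6, which elongates palmitate, was at 592, 512, 895 and 229.6 and 264, 169, 109 and 249 CPM (1.49 ± 0.40, adjusted p = 0.0945), where Elovl7 was at 0.06 and Elovl1 at -0.21. Scd2, the desaturase next to Scd3 in the RefSeq gene order, was at 654, 451, 261 and 296 and 569, 672, 556 and 709.7 CPM (-0.59 ± 0.27, adjusted p = 0.276), with a negative sign where Scd1 and Scd3 were positive. The differences between isoforms were not tested. In Acacb and Elovl6 cKO replicate 4 lay within the WT range and the other 3 above it.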

How the data were processed

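RNA from the epidermis of 8 imiquimod-treated mice (4 cKO, 4 WT) was sequenced after TRIzol extraction with the VAHTS Universal V6 kit, in 1 batch per the labels. The authors deposited raw read counts by gene symbol, with FPKM values (counts per gene length and library total) of the same libraries; HISAT2 and HTSeq are named in the submitters' processing notes. The sources used here do not give versions, genome build, annotation or strand setting, so overlapping genes and near-identical copies (the Scd genes, Fabp5) are uncertain.

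Counts were filtered with filterByExpr, scaled by TMM (factors 0.934 to 1.08) and tested with the edgeR 4.0.16 quasi-likelihood test (R 4.3.3) over all 14004 remaining genes, with Benjamini-Hochberg adjustment. Genes are called at an adjusted p below 0.05. CPM use TMM-scaled library sizes. Exact permutation tests are two-sided over the 70 splits of log2(CPM + 0.5), with a smallest p of 0.0286. Alternatives were DESeq2 1.42.0, limma 3.58.1 (voom, or log2 FPKM plus 1 or 0.1), other scalings and filters, a replicate block and leaving out each library. The fit was tested on simulated counts, where it recovered 58% of 100 genes changed 2-fold and 88% of 100 changed 4-fold. Of the 154 genes it called there, 8 were unchanged. A gene that was not called may therefore still differ 2-fold.

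The members and lists were chosen with earlier results of these data known. Named are all members, Hnrnpu, called genes of 5 further pathway lists with the 2 highest uncalled by FPKM, and the highest or called marker genes. Where values were seen first, the text says so.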

Additional observations from a re-analysis of the deposited data

Results flagged for a closer look

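Among 64 groups of 4 libraries (32 genes in 2 genotypes), 2 held a library far from the other 3, where chance flags about 1 in 20. Lpin1 was at 5.46 CPM in WT replicate 4 and at 3.76 to 3.80 CPM in the other WT libraries. Cidec was at 1.01 CPM in cKO replicate 1 and at 0.338 to 0.392 CPM in the other cKO libraries, from 14 to 39 counts.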

How the results depend on the processing

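The number of members with a positive fold change was 22 to 25 and the median over all members tested 0.26 to 0.60 under all alternatives, and Hnrnpu stayed between -0.60 and -0.33 without being called. Calls moved with the setting. Members called were 1 with edgeR, 14 with DESeq2, 2 with library-size scaling, 4 with no low-count filter, and 0 with limma-voom and with log2(FPKM + 1), filtered or not. Leaving out 1 library gave 0 to 8. Genes called in the 5 further lists were 2 with edgeR, 17 with DESeq2, 4 with no low-count filter, 0 with unfiltered log2(FPKM + 1), and 0 to 13 without 1 library. All tested genes called were 185 with edgeR, 1208 with DESeq2, 349 with no low-count filter, 19 with unfiltered log2(FPKM + 1), and 8 to 506 without 1 library. The replicate block gave 0 members, 0 genes of the further lists and 216 of all genes. Same-numbered libraries correlated at -0.133, 0.169, 0.098 and 0.258 (deviations from the genotype mean), the last being the highest of any cKO and WT pair. Not every library correlated best with its own number. The labels do not say whether the number marks a pairing, and these values do not settle it.

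Of the 32 members, 28 kept their sign under every alternative run. Acly went from -0.05 to 0.0020 with library-size scaling and to 0.0058, 0.0060 and 0.0058 on FPKM (plus 1, plus 0.1, and plus 1 unfiltered), and over the left-out libraries it ran from -0.12 to 0.038. Over the left-out libraries Me1 ran from -0.19 to 0.11, Dgat2 from -0.12 to 0.29 and Cidec from -0.39 to 1.10. Causes were not tested. Depth limits Plin5, Cidec, Fads2 and Mc5r, with 0 to 111 counts in most libraries.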
